A study of Mus musculus with 3 samples.

Results

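The genes of the TNF ligand and receptor superfamilies were examined in stromal progenitor cells sorted from mouse epididymal fat. Members were taken by name from the deposited gene count table: every symbol of the numbered Tnfsf and Tnfrsf series, together with Tnf, Lta, Ltb, Ltbr, Cd40, Cd40lg, Fas and Fasl. The rule gave 39 of 27179 genes, of which 16 encode ligands and 23 encode receptors. All 3 libraries came from naive wild-type C57B6 male mice aged 12 weeks and form 1 group, with no treatment, second genotype or second tissue. The sort kept live stromal vascular cells that lacked CD45, CD31 and Ter119 and carried CD140a, Sca1 and PDPN. The tissue came from 3 mice, and nothing in the labels ties each library to 1 mouse, so p-values measure the spread between these samples, which may be technical. With 1 group, genes can be compared within a library and libraries with each other, and no condition can be compared.

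Ligands of the TNF superfamily are mostly trimeric proteins held on the cell surface or shed from it. Their receptors fall into those with a death domain, which can start apoptosis or activate NF-kB, those that bind TRAF adaptors only, and decoys that bind a ligand without signalling. In fat, TNF is known for causing insulin resistance and for restraining adipocyte formation, and stromal cells are known as its responders more than as its source.

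Levels are CPM, read counts per 1000000 reads of the library, with library sizes scaled by the TMM method, and detection of a gene required at least 1 CPM in all 3 libraries. The libraries held 25060096 to 32813373 counts. A count of 0 allows up to 3 counts, or 0.0945, 0.119 and 0.107 CPM in replicates 1, 2 and 3, a limit that covers counting error only. The genes behind the sort were present, with Pdgfra (CD140a) between 1476 and 1501 CPM, Ly6a (Sca1) between 2755 and 3592 and Pdpn between 97.2 and 155. The excluded endothelial gene Pecam1 (CD31) had 1, 1 and 2 counts, and the leukocyte gene Ptprc (CD45) stood at 5.42, 15.8 and 7.68 CPM. Each library pools many cells, so fewer cells carrying a transcript and less transcript per cell cannot be told apart.

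Of the 39 members, 11 were detected (28.2%), against a background of 35.0% of all genes and 43.7% of protein-coding genes. The detected members were 7 of the 23 receptors (Tnfrsf1a, Fas, Tnfrsf1b, Tnfrsf11b, Tnfrsf12a, Ltbr and Tnfrsf22) and 4 of the 16 ligands (Tnfsf12, Tnfsf13b, Tnfsf9 and Tnfsf10). A further 5 reached 1 CPM in some libraries only, 12 had counts but stayed below 1 CPM in every library, and 11 had 0 counts in all 3 libraries. The median member had a mean of 0.0552 CPM, beside 0.108 CPM for the median of all genes and 1.90 CPM for protein-coding genes. The share of members detected was thus no higher than that of genes at large.

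**Figure D1:**
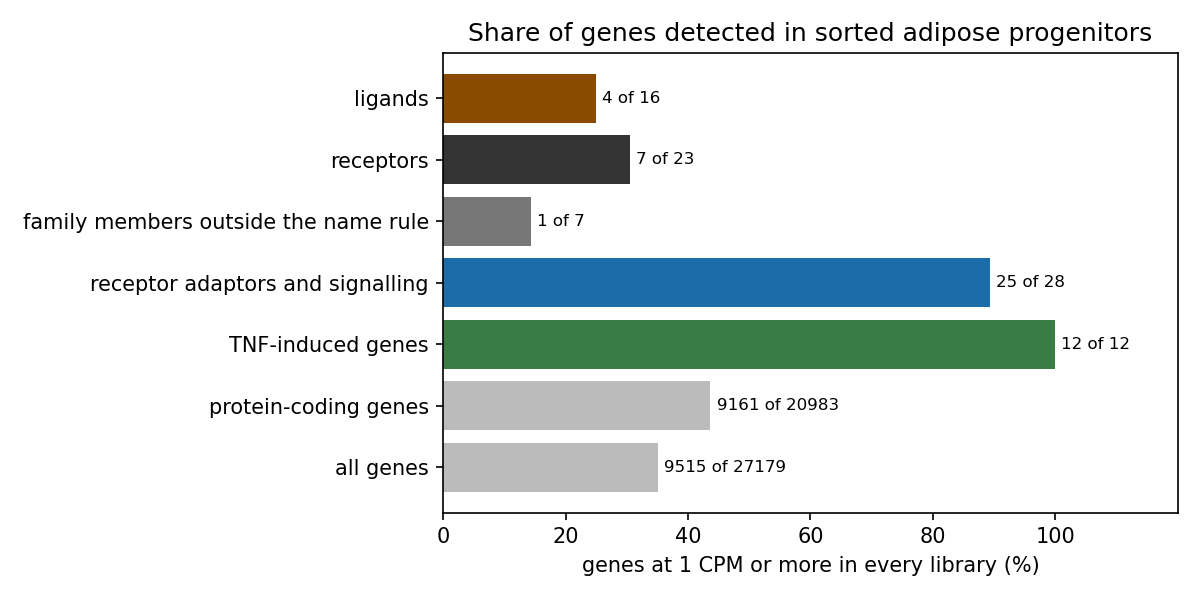
Horizontal bars give the percentage of genes detected in all 3 libraries, with the number detected of the number in each list beside the bar. Ligands (4 of 16) and receptors (7 of 23) lie below protein-coding genes (9161 of 20983). The adaptor and signalling list, Adam17 included (25 of 28), and TNF-induced genes (12 of 12) lie above them. The lists were chosen with earlier results of these data known.

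The main receptor for TNF had the highest level of all members, in CPM and per kilobase of exon, and Tnf itself had few reads. Tnfrsf1a encodes TNFR1, the death domain receptor through which soluble TNF mainly acts (gene 21937, chromosome 6, 125349723 to 125362483, GRCm38). It stood at 125, 139.7 and 207 CPM in replicates 1 to 3, a mean of 157 ± 43.5 (SD, n = 3). Tnfrsf1b encodes TNFR2, which has no death domain and prefers membrane-bound TNF, and it stood at 20.9, 49.6 and 83.4 CPM, 51.3 ± 31.3 on average. Replicate 3 was highest for both receptors, and replicate 1 was lowest. Tnf had 0, 10 and 0 counts, so its only reads came from replicate 2. Lta, which encodes the soluble lymphotoxin that shares both TNF receptors, had 0 counts in every library.

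The lymphotoxin beta receptor gene was detected without its ligand genes. Ltbr, whose product organises lymphoid stroma through the non-canonical NF-kB pathway, stood at 15.1, 32.97 and 22.3 CPM (23.4 ± 8.998, n = 3). All 3 libraries were well above the detection threshold, with replicate 2 highest. Ltb, the membrane anchor of its heterotrimeric ligand, had 1 count in replicate 1 and 0 in the others. Tnfsf14, which encodes the second ligand, LIGHT, had 0 counts in every library, and so had Tnfrsf14, the gene of the other LIGHT receptor HVEM.

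The ligand TWEAK and its receptor Fn14 were the only ligand and receptor partners of the family that both reached 5 CPM in all 3 libraries. At the detection threshold of 1 CPM, the genes of TRAIL (Tnfsf10) and of a decoy receptor for it (Tnfrsf22) were both detected too. Tnfsf12, which encodes TWEAK, a cytokine of tissue repair, stood at 28.7, 29.6 and 45.0 CPM (34.5 ± 9.17). Tnfrsf12a, which encodes Fn14, its small receptor induced by growth factors and injury, stood at 26.8, 22.0 and 39.3 CPM (29.4 ± 8.89). Both genes were highest in replicate 3. The annotation places 48.3% of the exon bases of Tnfsf12 also in Tnfsfm13, a read-through transcript that joins it to Tnfsf13 and had 0 counts, so its level depends on how shared reads were counted, which is not given in the sources used here.

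Among death receptors, Fas was abundant and uneven. Fas (gene 14102, chromosome 19, 34290647 to 34327775), whose product triggers apoptosis when bound by Fas ligand, stood at 78.8, 65.5 and 15.3 CPM (53.2 ± 33.5). Replicates 1 and 2 were close, and replicate 3 was low. Fasl, the gene of its ligand, had 0 counts in every library. Tnfrsf21, which encodes the death receptor DR6, stood at 7.81, 10.8 and 0.929 CPM, so replicate 3 again was the lowest and missed the threshold. Tnfrsf25, the gene of the death receptor DR3, had 0 counts, and Tnfsf15, the gene of the DR3 ligand TL1A, had 2 counts in all.

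The TRAIL branch was low. Tnfsf10, which encodes the apoptosis-inducing ligand TRAIL, stood at 1.48, 1.94 and 8.07 CPM, highest in replicate 3. Tnfrsf10b, the mouse death receptor for TRAIL, stood at 2.43, 2.69 and 0.964 CPM, just under the threshold in replicate 3. Tnfrsf22 encodes a mouse decoy receptor for TRAIL and stood at 16.1, 4.72 and 1.25 CPM, the widest spread of the detected members with a coefficient of variation of 106%. Its neighbour Tnfrsf23, also a decoy receptor gene, had 0 counts, and Tnfrsf26 had 3, 2 and 3. Of the 50-base words in Tnfrsf22 transcripts, 27.4% also occur in transcripts of other genes, most of them in Tnfrsf23, and how such reads were counted is not stated, so both levels are uncertain.

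The RANKL branch was represented mainly by its soluble inhibitor. Tnfrsf11b (gene 18383, chromosome 15, 54250619 to 54278484) encodes osteoprotegerin, a secreted decoy that binds RANKL and blocks osteoclast formation. It stood at 46.7, 17.8 and 65.9 CPM (43.4 ± 24.2), lowest in replicate 2. Tnfsf11, which encodes RANKL, stood at 1.32, 7.37 and 0 CPM, so the library with the least Tnfrsf11b had the most Tnfsf11. Tnfrsf11a, the gene of the signalling receptor RANK, had 4, 1 and 0 counts.

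Of the B-cell factor genes, BAFF was detected and its receptors were not. Tnfsf13b, which encodes BAFF, a survival factor for B cells, stood at 20.9, 20.6 and 33.4 CPM, all 3 libraries within a factor of 1.63. Tnfsf13, which encodes the related ligand APRIL, had 0 counts, but 60.05% of its exon bases lie also in Tnfsfm13, so its count also depends on how shared reads were treated. Of the receptor genes, Tnfrsf13b (TACI) had 0 counts, Tnfrsf13c (the BAFF receptor) had 4, 1 and 0, and Tnfrsf17 (BCMA) had 1 in all.

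Of the costimulatory ligands that act on T cells, Tnfsf9 was detected. It encodes the ligand of the T-cell receptor CD137 and stood at 20.6, 8.64 and 15.6 CPM (14.9 ± 6.01), lowest in replicate 2. An antisense gene, Gm11110, covers 14.9% of its exon bases and had 100, 1 and 180 counts, and without strand the reads of the 2 cannot be told apart there. Tnfsf18, the gene of the GITR ligand, had 0, 536 and 67 counts, or 0, 21.2 and 2.39 CPM. Tnfrsf4, which encodes the T-cell receptor OX40, had 0, 0 and 111 counts. Tnfsf4, the gene of the OX40 ligand, had 4 counts, all in replicate 2. Cd40 had 2 counts in all and Cd40lg had 0, as had Tnfsf8 and Tnfrsf8, the CD30 ligand and receptor genes. The receptor genes Tnfrsf9 (CD137) and Tnfrsf18 (GITR) had 4 and 2 counts in all, and Tnfrsf19 (TROY, an orphan receptor of skin and nervous system) had 17, 0 and 3.

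Per kilobase of exon, the scale on which levels of different genes can be compared, Tnfrsf1a stood apart from every other member. It reached 48.4, 53.9 and 79.8 CPM per kilobase, and its lowest library exceeded the highest library of Fas, the next gene, which had 38.2, 31.8 and 7.43. On this scale the mean of Tnfrsf1a, 60.7 ± 16.8, lay at percentile 96.1 of 20729 protein-coding genes with a length. Fas (25.8 ± 16.2), Tnfsf12 (22.7 ± 6.05), Tnfrsf11b (15.4 ± 8.60), Tnfrsf12a (15.2 ± 4.601), Tnfrsf1b (13.4 ± 8.20), Tnfsf9 (11.6 ± 4.66) and Ltbr (9.96 ± 3.82) followed, and each overlapped its neighbour in that order. Tnfsf13b, at 3.04, 2.99 and 4.87 CPM per kilobase, lay below the 8 genes above in all libraries. Tnfrsf22 and Tnfsf10 were lowest of the detected members at means of 1.75 and 0.728.

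**Figure D2:**
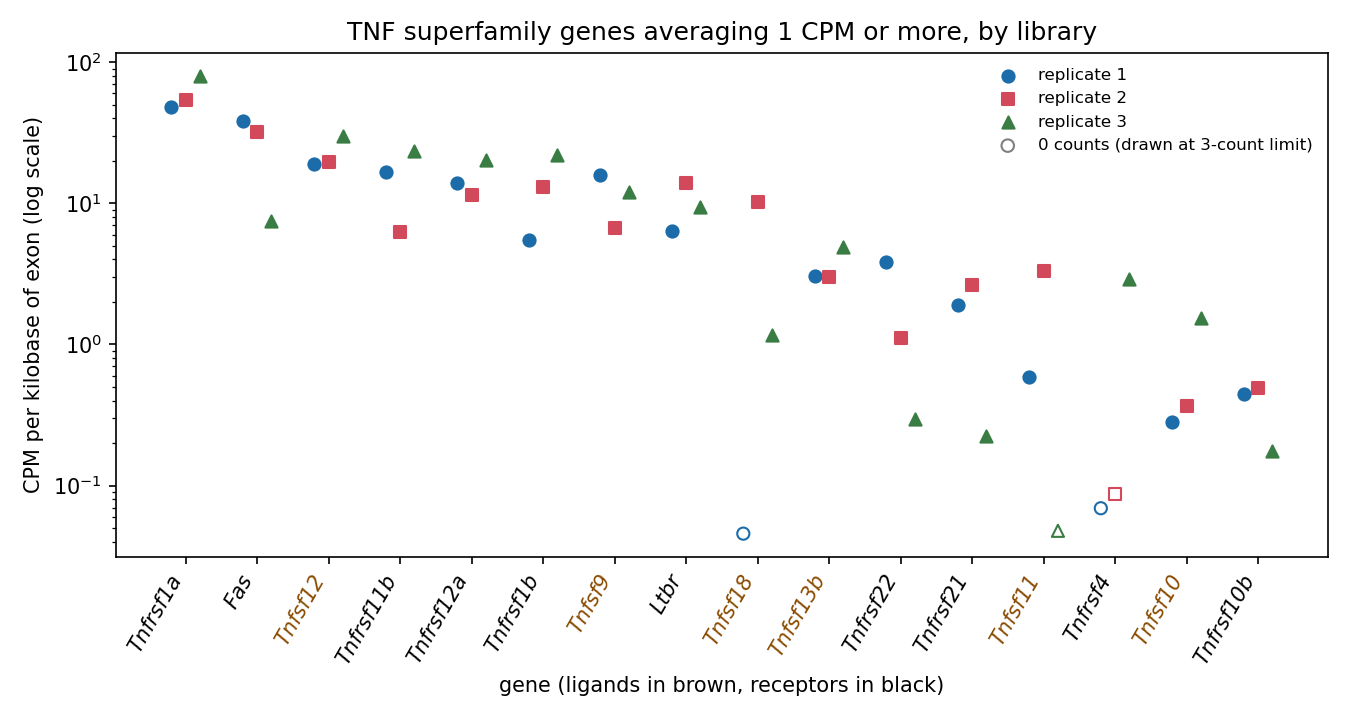
CPM per kilobase of exon, on a log scale, of the 16 members with a mean of 1 CPM or more, ordered by their mean, with 1 point for each library and open points for 0 counts drawn at the limit of 3 counts. Tnfrsf1a lies above all others in each library, Fas and Tnfrsf22 are low in replicate 3, and Tnfsf18, Tnfsf11 and Tnfrsf4 each have a library at 0.

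In 11 member pairs, the difference in log2(CPM per kilobase + 0.5) was taken within each library. Tnfrsf1a exceeded Tnfrsf1b by 2.297 ± 0.64 in 3 of 3 libraries, a ratio of 8.84, 4.15 and 3.65 without the pseudocount, and it exceeded Tnf by 6.71 ± 0.57. Ltbr exceeded Ltb by 4.30 ± 0.56. Tnfrsf11b exceeded Tnfsf11 by 3.46 ± 2.41, with values of 3.97, 0.84 and 5.58, so replicate 2 had by far the smallest difference. Tnfrsf12a and Tnfsf12 differed by -0.58 ± 0.16 in 3 of 3 libraries, but by 0.30 with the length of the longest transcript, so no order of TWEAK and its receptor holds. Each of these p-values was 0.25, the smallest that 3 libraries allow (exact sign-flip permutation test, two-sided), or 0.275 when adjusted over the 11 pairs.

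Where the second gene had 0 counts, the difference was set against the limit of 3 counts in each library. That limit covers counting error only, and 6.41% of genes with 100 counts or more in 1 library had 0 counts in another. The folds below are therefore minimums against counting error alone. Fas was at least 134-fold higher than Fasl per kilobase in every library, Ltbr at least 125-fold higher than Tnfsf14, and Tnfsf13b at least 41.2-fold higher than Tnfsf13, whose count is uncertain for the reason given. Tnfrsf10b was at least 6.54-fold higher and Tnfrsf22 at least 11.0-fold higher than Tnfrsf23, with the doubt on shared reads for that cluster. On the log2 scale, Fas minus Fasl was 5.43 ± 1.25, Ltbr minus Tnfsf14 was 4.32 ± 0.53, Tnfsf13b minus Tnfsf13 was 3.02 ± 0.35, Tnfrsf23 minus Tnfrsf10b was -0.78 ± 0.30 and Tnfrsf22 minus Tnfrsf23 was 1.83 ± 1.23, each with p = 0.25 in the same exact permutation test. Cd40 and Cd40lg were both at or under the limit, so no fold is given (p = 1.0, exact sign-flip permutation test).

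**Figure D3:**
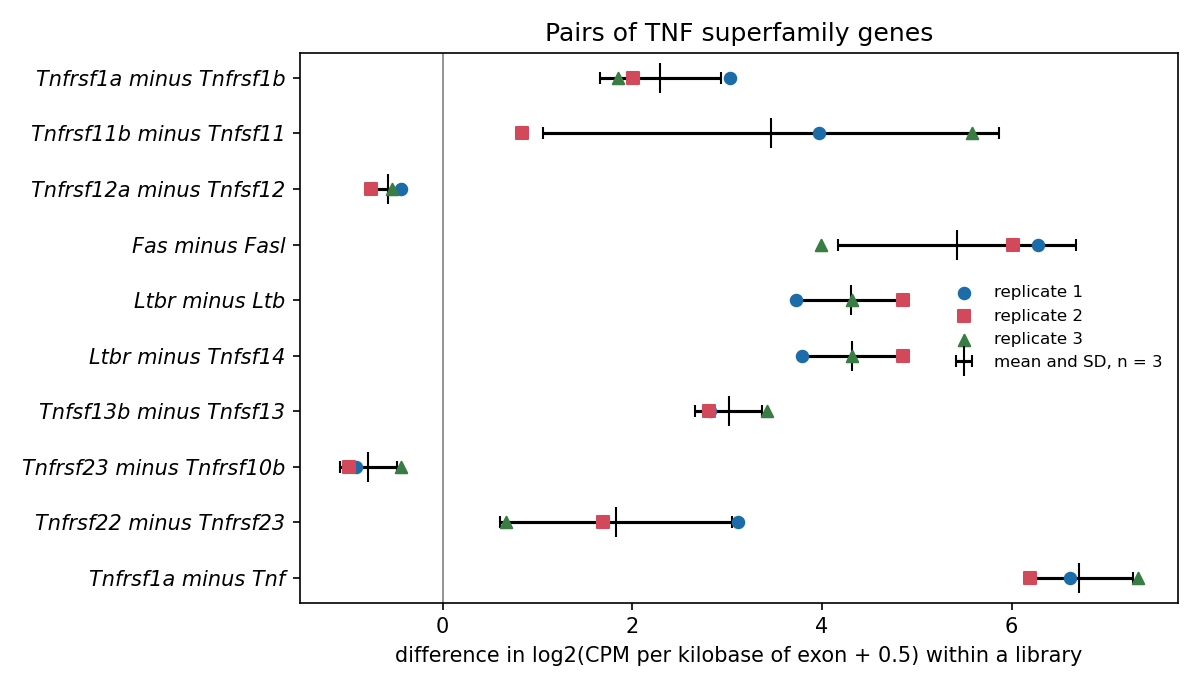
Within-library differences in log2(CPM per kilobase of exon + 0.5) for 10 member pairs, with a point for each library and the mean and SD over 3 libraries. Tnfrsf1a, Fas, Ltbr and Tnfsf13b lie above their partners in 3 of 3 libraries, Tnfrsf11b minus Tnfsf11 spreads from 0.84 to 5.58, and Tnfrsf12a minus Tnfsf12 lies near 0 and changes sign with the longest transcript length.

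Several members were uneven across the libraries, and whether a difference was called depended on the tool. A single library shows no spread of its own, so the tests below cannot decide whether it differs from the others. Replicates 1, 2 and 3 were each compared with the remaining pair of libraries by the edgeR quasi-likelihood test, in which the spread of the single library is taken to equal that of the pair. Of 13289 genes tested, 0.0% were called in each of the 3 comparisons, and 0 of the 18 members tested. At an unadjusted p under 0.05 the background was 3.78%, 4.88% and 5.24% of genes for replicates 1, 2 and 3. The members at that level were Tnfsf18 and Tnfrsf1b in replicate 1, Tnfrsf11b in replicate 2, and Fas, Tnfsf11 and Tnfrsf4 in replicate 3. For Fas the log2 fold change of replicate 3 was -2.24 with edgeR and -2.24 with DESeq2. DESeq2 called 0.948%, 1.5% and 1.48% of genes in the 3 comparisons, and among members called Tnfsf18 in replicate 1 (adjusted p = 0.0096, with 0 counts there) and Fas in replicate 3.

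Among detected members, the median coefficient of variation was 40.2%, ranging from 26.6% for Tnfsf12 to 106% for Tnfrsf22. The median was 33.2% for all detected genes and 36.4% for those with a mean CPM within the range of the detected members. The steadiest after Tnfsf12 were Tnfrsf1a (27.7%), Tnfsf13b (29.4%) and Tnfrsf12a (30.3%). Replicate 3 was the highest library for 7 of the 11 detected members (Tnfrsf1a, Tnfrsf1b, Tnfrsf11b, Tnfrsf12a, Tnfsf12, Tnfsf13b and Tnfsf10), against a background of 34.1% of all detected genes. Over the 28 members with any count, it was highest for 11 (39.3%), replicate 2 for 10 and replicate 1 for 7. Of the detected members, replicate 1 was highest for Fas, Tnfsf9 and Tnfrsf22 (background 32.7%), and replicate 2 for Ltbr (background 33.2%). Of the 15 members with 100 counts or more in a library, 3 had 0 counts in another (Tnfsf18, Tnfsf11 and Tnfrsf4), against a background of 6.41% of such genes. The last measure was chosen after these values were seen.

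**Figure D4:**
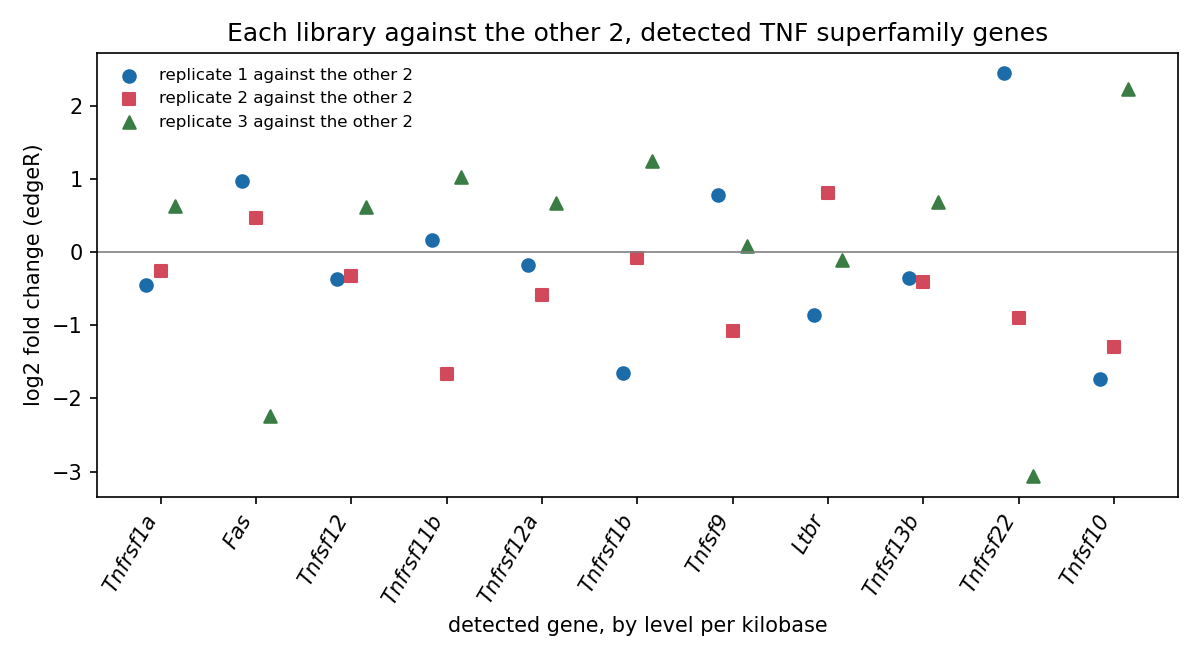
Log2 fold change of each library against the other 2 (edgeR) for the 11 detected members, ordered by level per kilobase. Replicate 3 lies above 0 for Tnfrsf1a, Tnfrsf1b, Tnfrsf11b, Tnfrsf12a, Tnfsf12, Tnfsf13b, Tnfsf9 and Tnfsf10. It lies at -0.11 for Ltbr, -2.24 for Fas and -3.07 for Tnfrsf22. A single library shows no spread of its own.

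The adaptor and signalling genes of these receptors, a list that also counts the protease gene Adam17, were detected in most cases. Of 28 adaptors and signalling genes, 25 were detected (89.3%, against 35.0% of all genes and 43.7% of protein-coding genes). This list was chosen with earlier results of these data known, so that share is not independent of them. Adam17, the protease that sheds TNF and its receptors, led at 127 ± 5.43 CPM, followed by the ubiquitin ligase gene Birc2 (77.8 ± 27.6), the deubiquitinase gene Cyld (77.7 ± 16.5), the kinase gene Ripk1 (71.0 ± 13.6), the caspase inhibitor gene Cflar (70.2 ± 25.5) and the kinase gene Map3k7 (67.7 ± 6.61). The undetected ones were Traf1 at 0.0945, 3.01 and 0.0357 CPM, Traf4 at 1.17, 0.277 and 15.3, and Edaradd, the adaptor gene of the ectodysplasin receptor, with 0 counts. Tradd and Fadd, the death domain adaptor genes, stood at 6.34 ± 5.80 and 7.71 ± 2.70.

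Genes known to be induced by TNF were detected in 12 of 12 cases, beside 35.0% of all genes and 43.7% of protein-coding genes, or 10 of 12 at 5 CPM. They were led by the chemokine gene Ccl2 at 1399.7 ± 142 CPM, the hyaluronan-binding protein gene Tnfaip6 at 500.3 ± 106, the chemokine gene Cxcl1 at 300.3 ± 114, Csf1 at 231 ± 66.4, the NF-kB inhibitor gene Nfkbia at 183 ± 29.8 and Tnfaip2 at 175 ± 38.0. As the list was chosen with earlier results of these data known, its share detected is not independent of them. Many of its genes also respond to other stimuli, and the cells had been digested and sorted. The 7 genes of the handling response list (Fos, Jun, Egr1, Atf3, Hspa1a, Hspa1b and Dusp1) were all detected and summed to 13848, 17782 and 15611 CPM, and their part in these levels was not tested. Of 7 family members that the naming rule leaves out, 1 was detected, Eda2r, a receptor gene of the ectodysplasin branch, at 17.2, 7.69 and 6.04 CPM. Eda, the ectodysplasin gene, stood at 19.5, 9.08 and 0.536 CPM and Ngfr, the neurotrophin receptor gene, at 0.0315, 0.0793 and 4.0. Relt, Edar and Cd27 had 1 count each and Cd70 had 0.

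The marker sums of some other cell types and some low members were highest in the same library. The 6 leukocyte markers, 1 of them detected (Ptprc), summed to 5.45, 39.3 and 21.1 CPM in replicates 1 to 3. Replicate 2, the highest, was also the library with the most Tnfsf18 and Tnfsf11. It was the only library with Tnf or Tnfsf4 reads (10 and 4 counts). Replicate 2 was the highest library for 10 of the 28 members with any count (35.7%), beside 33.2% of all detected genes. All 111 counts of Tnfrsf4 were in replicate 3. Between replicates 1 and 3, Tnfsf18 kept the order of the leukocyte sum. Tnfsf11 did not, at 1.32 CPM in replicate 1 and 0 in replicate 3. The 7 mural markers, 1 detected (Abcc9), summed to 18.7, 92.7 and 25.8 CPM with Rgs5 at 0 counts, and the 8 macrophage markers, 0 detected, to 1.26, 3.92 and 0.179 with C1qb at 0. Single markers did not all follow these sums. In the leukocyte list, Ptprc, Cd53 and Coro1a were highest in replicate 2, and Cd52, Rac2 and Laptm5 in replicate 3. Abcc9 alone gave 85.4 CPM of the mural sum in replicate 2, where Cspg4 and Notch3 were at their lowest. Lyz2, C1qa and C1qc had 0 counts in replicate 2. The part of these cells in the levels of Tnfsf18, Tnfsf11, Tnf and Tnfsf4 was not tested. The 8 lymphocyte markers summed to at most 0.143 CPM, with Lck and Ms4a1 at 0, the 7 endothelial markers to at most 0.393, and the mesothelial and adipocyte lists, with 1 of 8 and 0 of 6 detected, to at most 21.4 and 9.92 (Adipoq and Cidec at 0).

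Many members lie beside a relative in the genome. Within 100 kilobases of each other lay 11 pairs of adjacent members, holding 20 of the 39. In 1 of these pairs, Ltbr and Tnfrsf1a, 35.8 kilobases apart on chromosome 6, both genes were detected. The share of single members detected, 28.2%, is no measure for pairs, and none was computed for neighbouring genes at large. In 5 pairs a single gene was detected, among them Tnfrsf1b beside Tnfrsf8, 20.3 kilobases away on chromosome 4. In the other 5 pairs no gene was, including Ltb, Tnf and Lta on chromosome 17, which lie 3.06 and 1.16 kilobases apart.

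The promoters of these 2 clusters are shown because they hold a detected and an undetected group of family genes side by side. Each sequence runs 5′ to 3′ on the strand of the gene, from 250 bases before to 50 after a start site (RefSeq, GRCm38.p6). Capitals mark CpG dinucleotides. The annotated Lta gene begins further upstream, at 35205578, so most of its window lies inside the gene. The windows are chr6:125349473-125349772 (plus strand) for Tnfrsf1a, chr6:125313836-125314135 (minus) for Ltbr, chr17:35201958-35202257 (minus) for Tnf, chr17:35194257-35194556 (plus) for Ltb and chr17:35205302-35205601 (minus) for Lta.
Tnfrsf1a: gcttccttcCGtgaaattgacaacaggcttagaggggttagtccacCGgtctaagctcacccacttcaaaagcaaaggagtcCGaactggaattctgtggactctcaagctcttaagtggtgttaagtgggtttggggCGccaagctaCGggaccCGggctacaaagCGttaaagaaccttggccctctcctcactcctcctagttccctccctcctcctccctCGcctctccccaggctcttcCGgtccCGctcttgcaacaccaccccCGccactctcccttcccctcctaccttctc
Ltbr: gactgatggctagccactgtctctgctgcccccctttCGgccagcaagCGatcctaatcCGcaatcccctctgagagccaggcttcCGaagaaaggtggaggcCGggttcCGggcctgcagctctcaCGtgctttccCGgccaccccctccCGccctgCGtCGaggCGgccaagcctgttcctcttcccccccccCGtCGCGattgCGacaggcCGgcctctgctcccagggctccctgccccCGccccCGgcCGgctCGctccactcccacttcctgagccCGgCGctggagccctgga
Tnf: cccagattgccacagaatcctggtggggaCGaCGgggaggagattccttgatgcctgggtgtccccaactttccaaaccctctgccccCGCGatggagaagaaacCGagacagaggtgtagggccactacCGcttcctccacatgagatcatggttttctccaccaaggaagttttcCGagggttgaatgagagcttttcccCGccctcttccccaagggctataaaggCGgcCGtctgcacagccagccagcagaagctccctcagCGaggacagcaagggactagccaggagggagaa
Ltb: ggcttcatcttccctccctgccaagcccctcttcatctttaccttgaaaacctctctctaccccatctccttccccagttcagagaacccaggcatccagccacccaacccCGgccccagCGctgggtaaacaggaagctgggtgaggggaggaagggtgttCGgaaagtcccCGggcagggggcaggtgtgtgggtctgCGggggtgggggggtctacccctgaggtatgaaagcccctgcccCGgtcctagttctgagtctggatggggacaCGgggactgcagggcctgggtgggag
Lta: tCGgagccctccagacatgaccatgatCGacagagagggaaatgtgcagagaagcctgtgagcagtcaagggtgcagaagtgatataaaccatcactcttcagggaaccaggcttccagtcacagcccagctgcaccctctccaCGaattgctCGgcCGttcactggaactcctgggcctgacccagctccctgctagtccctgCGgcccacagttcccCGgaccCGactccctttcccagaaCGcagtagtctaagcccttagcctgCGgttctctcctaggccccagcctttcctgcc

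Ltbr had 23 CpG in its window, Tnfrsf1a 11, Tnf 11, Lta 10 and Ltb 7, so Tnfrsf1a, which was detected, and Tnf, which was not, had the same count. A promoter was matched for 30 members. The median was 13 CpG in the 7 detected members and 7 in the 23 others, beside 22 in detected and 5 in undetected protein-coding genes. A loose pattern for the NF-kB motif was searched, GGGANNNNCC or its reverse complement GGNNNNTCCC, in which N is any base. It occurred in 0 of the 7 detected and 8 of the 23 undetected members, Tnf and Ltb among the latter but not Lta. It occurred in 5 of the 9 TNF-induced genes with a promoter and in 22.9% of all protein-coding promoters of the same length. The share was 26.3% in detected and 20.2% in undetected protein-coding genes. With 7 detected members, no difference is read from these shares. In Tnf the match was GGGACTAGCC and in Ltb GGAAAGTCCC. A match describes the letters only and is not a binding site, and the Tnf match lies after the start site. The windows of Tnfrsf13b, Tnfrsf14, Tnfrsf17, Tnfrsf23 and Tnfrsf25 lie wholly inside their annotated genes. Of these, Tnfrsf13b, Tnfrsf14 and Tnfrsf25 hold the pattern. Most of the window of Tnfsf13b, a detected member, also lies inside its gene, which begins at 10006229. Which start site the cells used was not tested.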

How the data were processed

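RNA of 3 samples of 1 group was amplified with a SMARTer low-input kit, per the labels. STAR 2.3.0, CASAVA 1.8.2 and the build mm10 appear in the submitters' processing notes. How reads were counted, with which annotation and strand setting, is not stated there. The authors deposited raw read counts per NCBI gene ID. RefSeq (GRCm38.p6) gave symbols for 25275 of 27179 IDs.

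TMM sizes, CPM and the quasi-likelihood test came from edgeR 4.0.16 in R 4.3.3 (10 counts or more in at least 1 library, Benjamini-Hochberg over all genes tested, threshold 0.05). On simulated data the test missed part of the changed genes, so a lack of calls does not show equal levels. DESeq2 1.42.0 served as the alternative. Exon lengths, overlaps and 50-base words came from GENCODE M21 (21572 genes). Log2 differences used a pseudocount of 0.5, which understates those of genes near 0. Python 3.11.15 was used. The depth of 25060096 to 32813373 counts per library sets the limits given for a count of 0. Pathway members named are up to 6 with the highest mean CPM and those not detected (Tradd, Fadd and Eda2r were added after their values were seen). The members and lists were chosen with earlier results of these data known. Alternatives were other detection thresholds, size factors, filters, pseudocounts and lengths, and leaving out each library.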

Additional observations from a re-analysis of the deposited data

How the results depend on the processing

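The count of detected members, 11, was 13 at 0.5 CPM, 9 at 5 CPM, 11 with either other scaling and 11 to 14 without each replicate in turn. Adaptor and signalling genes, Adam17 included, fell from 25 to 20 and TNF-induced genes from 12 to 10 at 5 CPM. Without each replicate, adaptor and signalling genes gave 25 to 26 and TNF-induced genes 12. Family genes outside the naming rule gave 1 to 2 without each replicate, and 2 at 0.5 CPM. Of the pair differences, Tnfrsf12a minus Tnfsf12 turned to 0.30 with the longest transcript length. Cd40 minus Cd40lg, both at or under the limit, was 0 without replicate 2, and the other 9 pairs kept their sign in the alternatives run. Tnfrsf11b minus Tnfsf11 ranged from 2.40 to 4.77 without each replicate, and Tnfrsf22 minus Tnfrsf23 was 1.18 without replicate 1. Pairs with a gene at 0 counts moved with the pseudocount: from 1 to 0.1, Tnfsf13b minus Tnfsf13 went from 2.19 to 5.19, Tnfrsf23 minus Tnfrsf10b from -0.45 to -2.16 and Tnfrsf22 minus Tnfrsf23 from 1.24 to 3.63. Where edgeR's quasi-likelihood test called 0 genes for each replicate, DESeq2's Wald test called 126, 199 and 197 genes, and 1, 0 and 1 members, for replicates 1, 2 and 3. With no count filter edgeR called 16, 16 and 36 genes and 0 members, and with a filter of 100 counts 2 genes in replicate 2. The cause was not tested. Leaving out a library gives no test between libraries, since no residual degree of freedom is left. No paired analysis was possible because there is 1 group. Depth limits what can be said of members with few counts.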
